A study of Mus musculus with 6 samples.

Results

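RNA counts were examined for 10 mouse Rgs genes, which encode regulators of G protein signalling, in chemically induced cardiovascular progenitor cells (ciCPCs) sequenced at passage 3 and at passage 20. The genes were Rgs2, Rgs3, Rgs4, Rgs5, Rgs10, Rgs12, Rgs14, Rgs16, Rgs17 and Rgs19, chosen by name with their passage 20 against passage 3 values already known, out of 53801 genes in the count files. The 11 other genes named Rgs were Rgs1, Rgs6, Rgs7, Rgs8, Rgs9, Rgs11, Rgs13, Rgs18, Rgs20, Rgs21 and Rgs22. ciCPCs are obtained from mouse fibroblasts with chemicals. All libraries came from wild-type cells of a mixed C57BL/6 and 129J/SvE background, passaged after colonies had been picked. The growth medium of all of them held the factors BMP4 and Activin A, CHIR99021 (a GSK3 inhibitor) and SU5402 (an inhibitor of FGF receptors). Each passage had 3 libraries, and the only difference that the labels give between the groups is the passage number. The labels do not say that the 3 libraries came from separate cultures, so p-values measure the spread between these libraries, which may be technical. Passage cannot be told apart from culture, harvest or library batch.

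G protein-coupled receptors act through a Gα subunit that is active while it holds GTP and through the Gβγ pair that it releases. RGS proteins bind active Gα and speed up its GTP hydrolysis, which shortens the signal of receptors coupled to the Gi and Gq families. The R4 subfamily (here Rgs2, Rgs3, Rgs4, Rgs5 and Rgs16) consists mostly of small proteins with little beyond the RGS domain, and Rgs4 and Rgs5 are known from the heart and from vessel wall cells. The R12 subfamily (Rgs10, Rgs12 and Rgs14) acts on the Gi family, and the RZ subfamily (among the listed genes Rgs17 and Rgs19) acts on Gz and Gi.

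Rgs4, Rgs5 and Rgs16 share a feature at the very start of the protein, a cysteine straight after the initiator methionine. These 3 are known substrates of the Arg/Cys N-degron pathway, in which that cysteine, once exposed and oxidised in the presence of oxygen and nitric oxide, marks the protein for destruction. The first 30 coding bases of the 3 genes are shown with those of Rgs2, which has a glutamine codon at that place. They were read from GENCODE M21 on GRCm38, 5′ to 3′, with the second codon in capitals.
Rgs16: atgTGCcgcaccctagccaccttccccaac
Rgs4: atgTGCaaaggacttgcaggtctgccggct
Rgs5: atgTGTaagggactggcagctctgccgcac
Rgs2: atgCAAagtgccatgttcctggctgtccag
All 4 lie on chromosome 1. Their start codons are at chr1:153740469-153740471 on the plus strand (Rgs16), chr1:169747521-169747523 on the minus strand (Rgs4), chr1:169655578-169655580 on the plus strand (Rgs5) and chr1:144004116-144004118 on the minus strand (Rgs2). A cysteine second codon was present in 3 of the 21 Rgs genes, and in 195 of 20320 protein-coding genes (0.96%). Protein was not measured, so the counts describe the RNA alone.

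The 120 bases before the RefSeq transcript start of the same 4 genes (GRCm38.p6) are shown because these genes held the 3 largest rises and the largest fall among the listed genes. Capitals mark the motif TATAAA, the motif CCAAT or the motif GGGCGG, each on either strand. In capitals ATTGG therefore stands for a CCAAT of the opposite strand. Likewise CCGCCC stands for the opposite strand's GGGCGG.
Rgs16: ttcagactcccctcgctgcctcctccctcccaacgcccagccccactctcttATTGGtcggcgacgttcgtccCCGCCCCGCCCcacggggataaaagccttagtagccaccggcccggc
Rgs5: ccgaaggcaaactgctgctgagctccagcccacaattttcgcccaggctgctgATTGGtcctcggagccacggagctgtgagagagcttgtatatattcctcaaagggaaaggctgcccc
Rgs4: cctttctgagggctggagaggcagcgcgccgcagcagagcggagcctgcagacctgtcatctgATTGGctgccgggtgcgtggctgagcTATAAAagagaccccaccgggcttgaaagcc
Rgs2: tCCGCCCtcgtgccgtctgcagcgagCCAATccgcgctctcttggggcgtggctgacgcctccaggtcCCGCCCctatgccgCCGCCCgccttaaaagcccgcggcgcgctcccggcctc
These stretches lie at chr1:153740233-153740352 (Rgs16, plus strand), chr1:169655381-169655500 (Rgs5, plus), chr1:169747643-169747762 (Rgs4, minus) and chr1:144004150-144004269 (Rgs2, minus). The first base of ATTGG was at position -68 in Rgs16, -67 in Rgs5 and -57 in Rgs4, counted from the transcript start, and CCAAT stood in the other orientation at -94 in Rgs2. Windows of 300 bases (250 before and 50 after the start) were available for 9 of the 10 genes, and the windows of Rgs3, Rgs10, Rgs12, Rgs17 and Rgs19 held no CCAAT. Over 32851 such windows, 37.4% held CCAAT, 35.7% GGGCGG and 13.6% TATAAA on either strand. The 2 GGGCGG matches of Rgs16 overlapped by 1 base. TGACGTCA (1.79% of all windows) was in no window of the listed genes. These matches describe letters only.

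The libraries held 11387738 to 17721788 counts in genes. Levels are given as CPM, counts scaled to a common depth with TMM factors. Rgs genes are compared with each other as CPM per kb of exon. Sums over marker lists are in CPM without division by length. Replicate 3 of passage 20 stood apart from its group: its counts differed from those of the other 2 by a chi-square of 10.2 and 8.37 per degree of freedom, against 1.77 to 2.66 for the other pairs of replicates. The change with passage was wide. Of 15143 genes tested by the quasi-likelihood method of edgeR, with p-values adjusted after Benjamini and Hochberg, 5604 were higher (37.0%) and 5641 lower (37.3%) at passage 20 at an adjusted p under 0.05. Over all genes the median log2 difference was -0.01, and it became -0.34 with scaling by library size alone, which also took the share of calls that were higher from 49.8% to 29.9%. In these bulk samples, fewer cells of a type and less RNA per cell cannot be told apart.

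The counting error of a listed gene depends on its depth: 2261 counts stood behind Rgs16 at passage 20 and 96 behind Rgs2. Of the 10 listed genes, 9 were deep enough to be tested, 6 were called higher and 3 lower, and none of those 9 had overlapping groups. Across all genes, 74.3% were called, and 77.5% had groups that did not overlap, 38.3% with passage 20 above and 39.3% with it below. Because the genes were listed with this contrast known, these counts are a description, and their fold changes (passage 20 over passage 3, with the standard error of log2) are given without a test.

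Rgs16 was the gene that differed most. Rgs16 (ENSMUSG00000026475, chr1:153740349-153745468, plus strand) acts on both Gi and Gq, and many cells switch it on when they are stimulated. Its level was 3.17, 3.26 and 2.98 CPM in the passage 3 libraries and 65.8, 66.8 and 76.0 CPM in the passage 20 libraries, from raw counts of 50, 53 and 59 against 665, 672 and 924. The groups lay far apart, and all libraries within a group were close together. The mean was 3.14 ± 0.143 CPM at passage 3 and 69.5 ± 5.59 CPM at passage 20 (SD, n = 3), 22.2-fold higher (log2 4.47 ± 0.10, SE). The log2 value stayed between 4.39 and 4.51 with each library left out in turn. The antisense gene whose exons overlap Rgs16 had 2 counts over the 6 libraries.

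Rgs5 and Rgs4 are neighbours that point towards each other on chromosome 1 with 45.7 kb between them, and no other protein-coding gene lay within 100 kb of either. Rgs5 (ENSMUSG00000026678, chr1:169655501-169695813, plus strand), best known as a marker of pericytes, measured 8.24, 7.88 and 9.40 CPM at passage 3 and 26.7, 29.0 and 19.2 CPM at passage 20. Every passage 20 library was above every passage 3 library, and replicate 3 of passage 20, the library that stands apart, was the lowest of its group. The means were 8.51 ± 0.795 and 25.0 ± 5.17 CPM (SD, n = 3), 2.91-fold higher (log2 1.54 ± 0.15). Without that library the log2 difference was 1.69, the top of its range of 1.42 to 1.69 with each library left out.

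Rgs4 (ENSMUSG00000038530, chr1:169741477-169747642, minus strand), a regulator of Gi and Gq signals studied in the heart and brain, measured 15.01, 14.5 and 14.2 CPM at passage 3 and 31.6, 26.3 and 35.5 CPM at passage 20. The passage 3 libraries were nearly level, whereas the passage 20 libraries spread widely, and in contrast to Rgs5 replicate 3 was the highest. The means were 14.6 ± 0.431 and 31.1 ± 4.65 CPM (SD, n = 3), 2.14-fold higher (log2 1.10 ± 0.11).

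Rgs3 and Rgs2 are the remaining listed R4 genes, and they differed in opposite directions. Rgs3 (ENSMUSG00000059810, chr4:62559847-62704001, plus strand) has long and short forms, which counts per gene do not separate. It measured 20.2, 22.4 and 22.7 CPM at passage 3 and 36.7, 39.5 and 42.1 CPM at passage 20, with no overlap. Its means of 21.7 ± 1.38 and 39.4 ± 2.69 CPM (SD, n = 3) gave a 1.81-fold higher level (log2 0.86 ± 0.08). Rgs2 (ENSMUSG00000026360, chr1:143999338-144004161, minus strand) prefers Gq and restrains vasoconstrictor signals in mouse arteries. It measured 5.70, 4.62 and 5.46 CPM at passage 3 and 2.77, 3.28 and 2.88 CPM at passage 20, so that each late library lay below each early one. The means were 5.26 ± 0.568 and 2.98 ± 0.269 CPM (SD, n = 3), 1.77-fold lower (log2 -0.82 ± 0.17), on 273 and 96 counts. Among the listed genes it had the largest fall.

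Of the R12 genes, Rgs12 (ENSMUSG00000029101, chr5:34949445-35039644, plus strand), a large protein with Ras-binding and GoLoco regions beside its RGS domain, differed least. Its levels were 80.8, 81.6 and 82.1 CPM at passage 3 and 72.8, 70.6 and 65.9 CPM at passage 20. The early libraries were almost identical and all lay above the late ones. The means were 81.5 ± 0.629 and 69.8 ± 3.49 CPM (SD, n = 3), 1.17-fold lower (log2 -0.23 ± 0.06). Rgs10 (ENSMUSG00000030844, chr7:128373621-128418758, minus strand), a small regulator of Gi known from immune cells, measured 5.51, 5.36 and 5.97 CPM at passage 3 and 12.5, 9.05 and 9.70 CPM at passage 20. Replicate 1 was the highest of the late libraries, and the groups did not overlap. The means were 5.61 ± 0.315 and 10.4 ± 1.82 CPM (SD, n = 3), 1.85-fold higher (log2 0.88 ± 0.15).

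Rgs14 (ENSMUSG00000052087, chr13:55369732-55384687, plus strand), which in mouse brain is known from hippocampal neurons, was close to absent. Its raw counts were 0, 1 and 3 at passage 3 and 1, 0 and 0 at passage 20, too few to be tested. The ratio of the pooled counts, passage 3 over passage 20 and scaled for depth, was 2.496 with a 95% counting interval from 0.247 to 122.9. A floor of 3 counts corresponds to 0.152 to 0.298 CPM per library, so Rgs14 was at or under that floor in all 6 libraries, and no difference was detectable at this depth.

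The listed RZ genes also differed in opposite directions. Rgs19 (ENSMUSG00000002458, chr2:181688419-181693977, minus strand), a palmitoylated regulator of Gi that is also called GAIP, measured 31.7, 28.9 and 30.1 CPM at passage 3 and 20.5, 18.0 and 24.6 CPM at passage 20. Each late library was below each early one, and replicate 3 came closest to the early group. The means were 30.3 ± 1.43 and 21.0 ± 3.32 CPM (SD, n = 3), 1.43-fold lower (log2 -0.52 ± 0.11, and -0.67 without replicate 3 of passage 20). Rgs17 (ENSMUSG00000019775, chr10:5825663-5922400, minus strand), a regulator of Gz and Gi, measured 6.84, 6.71 and 6.57 CPM at passage 3 and 11.1, 12.4 and 9.78 CPM at passage 20. The early libraries again hardly varied, and the late ones were all higher. The means were 6.71 ± 0.135 and 11.1 ± 1.32 CPM (SD, n = 3), 1.65-fold higher (log2 0.72 ± 0.12). Without replicate 3 of passage 20, the library that stands apart, the log2 differences were 4.39 for Rgs16, 0.98 for Rgs4, 0.79 for Rgs3, -0.81 for Rgs2, 0.92 for Rgs10, -0.20 for Rgs12 and 0.80 for Rgs17. Leaving it out thus turned none of the 9. Scaling by library size alone lowered the log2 values of the 9 genes and turned none of them: Rgs16 was then 4.14, Rgs17 0.39 and Rgs12 -0.56.

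**Figure D1:**
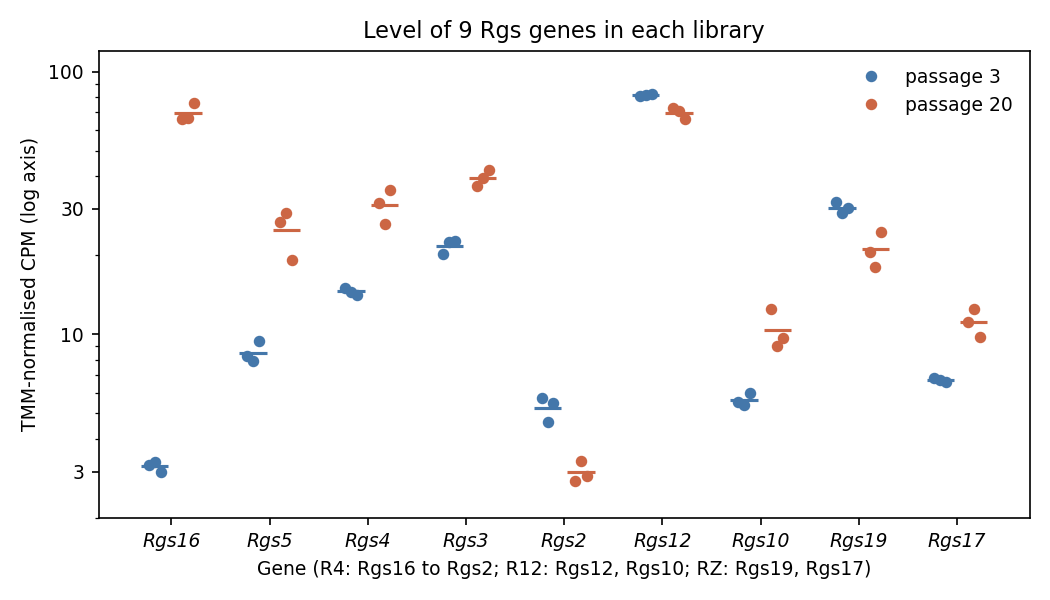
Level of the 9 tested Rgs genes in each library, in TMM-normalised CPM on a log axis, with each point 1 library and each bar the mean of 3, ordered by subfamily. The passage 20 libraries of Rgs16 sit between 65.8 and 76.0 CPM against 2.98 to 3.26 CPM at passage 3, and the groups of no gene shown overlap.

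Per kb of exon, the order of the listed genes was not the same at the 2 passages. At passage 3 Rgs19 was the most abundant (13.6 ± 0.641 CPM per kb, SD, n = 3), followed by Rgs12 (9.60 ± 0.0741), Rgs4 (4.70 ± 0.139) and Rgs10 (3.28 ± 0.184). Rgs3 (2.01) and Rgs5 (1.87) came next and overlapped, as did Rgs2 (1.45) and Rgs16 (1.34), and Rgs17 (0.809) was above Rgs14 alone. Rgs16 was thus the eighth of 10 at passage 3, and at passage 20 it was the first, at 29.7 ± 2.39 CPM per kb. Rgs4 (10.04 ± 1.501), Rgs19 (9.43 ± 1.49) and Rgs12 (8.22 ± 0.411) followed, and neighbours in this run overlapped. Rgs10 (6.08) and Rgs5 (5.49) overlapped too, with Rgs3 (3.65), Rgs17 (1.34), Rgs2 (0.821) and Rgs14 below them.

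Summed over all 21 Rgs genes, the level was 42.3 ± 0.840 CPM per kb at passage 3 and 84.5 ± 2.70 CPM per kb at passage 20 (SD, n = 3), a ratio of 2.00, or 1.59 with scaling by library size alone. Exon length here joins the exons of all transcripts of a gene, whichever are expressed. Without division by length the sums were 202.0 ± 2.56 and 331.3 ± 6.71 CPM, a ratio of 1.64. Without Rgs16 the sums were 41.0 ± 0.888 and 54.8 ± 2.93 CPM per kb, a ratio of 1.34. That ratio is for TMM scaling. Library sizes alone rescale these sums by the same factor per library as the whole sum, which takes most of that difference away. Rgs16 made up 3.17 ± 0.199% of the sum at passage 3 and 35.2 ± 2.61% at passage 20. The share of Rgs19 went from 32.1 ± 1.06% to 11.1 ± 1.53%, and that of Rgs12 from 22.7 ± 0.499% to 9.74 ± 0.608%. Rgs4, with a level that was 2.14-fold higher, held a similar share at both passages (11.1 ± 0.381% and 11.9 ± 1.48%). By subfamily, the R4 genes, Rgs16 and Rgs8 among them, went from 27.1 ± 0.169% to 59.2 ± 2.82%. The R12 genes went from 30.5 ± 0.604% to 16.9 ± 1.39%, and the RZ genes, with Rgs20, from 34.5 ± 1.25% to 13.0 ± 1.32%. With TMM scaling the summed level of the R12 genes was 12.9 ± 0.251 CPM per kb at passage 3 and 14.3 ± 1.37 CPM per kb at passage 20. Their smaller share thus came with a larger total under that scaling. Library sizes alone, which took the ratio of the whole sum from 2.00 to 1.59, rescale every Rgs gene of a library by the same factor. The shares then stay the same, but the R12 sum is lower at passage 20. The direction of the R12 total therefore depends on the scaling. The R7 genes held 7.49 ± 0.521% and 10.7 ± 2.68%, with overlapping groups, on summed levels of 3.17 ± 0.197 and 9.01 ± 2.24 CPM per kb. The 3 genes with the cysteine codon together held 18.7 ± 0.221% of the sum at passage 3 and 53.6 ± 2.44% at passage 20. Most of that difference lay in Rgs16 alone, since Rgs4 held a similar share and Rgs5 held 4.4% and 6.5%.

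**Figure D2:**
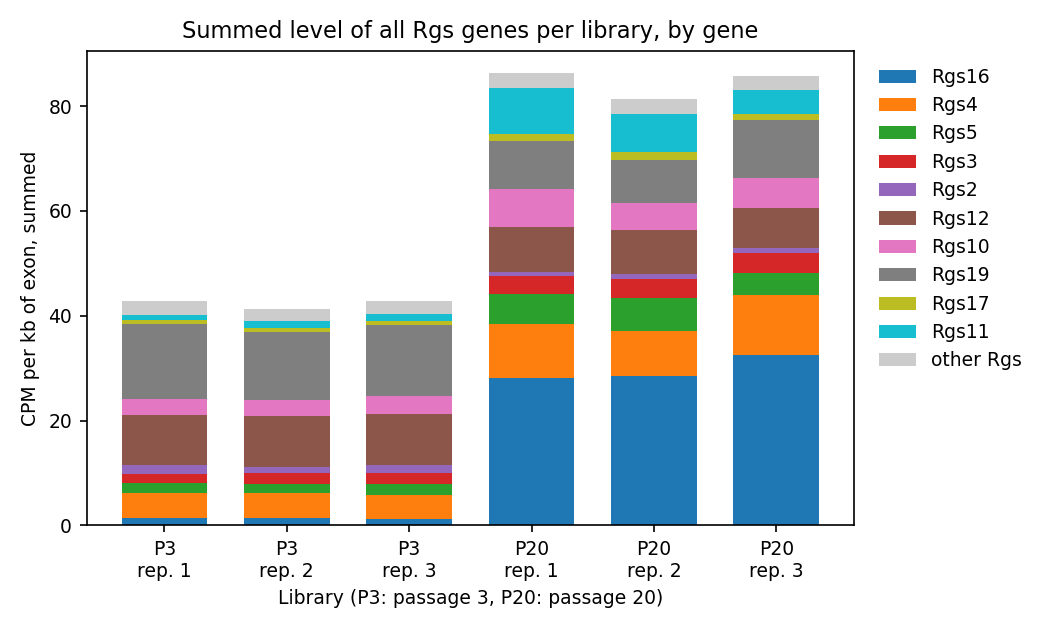
Summed level of the Rgs genes in each library, in CPM per kb of exon, with 1 bar per library and segments by gene. The passage 3 bars reach 41.3 to 42.8 and the passage 20 bars 81.4 to 86.3, and the Rgs16 segment goes from 1.34 to 29.7 on average.

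The 11 other Rgs genes are those that the list leaves out, so they too were set apart with this comparison known, and their calls are read from the test of all genes. Of these, 7 had enough counts, 3 were higher, 0 were lower and 4 did not pass with edgeR, against 37.0% higher and 37.3% lower over all genes. The number lower was also 0 at an unadjusted p under 0.05, and 0 with DESeq2 and with limma-voom. The median log2 fold change of the 7 was 0.18. Rgs11, an R7 regulator that pairs with Gβ5 and is known from retinal bipolar cells, rose in all libraries, from 3.801, 5.79 and 5.86 CPM to 36.8, 31.0 and 19.2 CPM. Replicate 3 of passage 20 was the lowest of the late libraries and still above all early ones. The change was 5.54-fold (log2 2.47 ± 0.27, edgeR adjusted p = 8.07e-05), with a log2 value of 2.69 without replicate 3 of passage 20. The exons of Rgs11 overlap those of Arhgdig on the other strand, which had 307 counts against 1187, so the split of reads between them is uncertain. Rgs8, an R4 gene 40.0 kb from Rgs16, rose from 0.688 ± 0.214 to 2.22 ± 0.557 CPM (log2 1.72 ± 0.31, edgeR adjusted p = 0.000409), on 35 and 73 counts. Rgs9, an R7 gene of photoreceptors and striatum, rose from 3.29 ± 0.1799 to 4.69 ± 0.501 CPM (log2 0.51 ± 0.16, edgeR adjusted p = 0.0141). That call was lost with DESeq2 (adjusted p = 0.0663), with library sizes alone (0.33), without replicate 2 of passage 3 (0.0528) and without replicate 2 of passage 20 (0.056).

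Rgs6, an R7 gene known for curbing muscarinic signals in the pacemaker of the mouse heart, was at 12.5 ± 0.801 and 11.8 ± 0.809 CPM (log2 -0.09 ± 0.11, edgeR adjusted p = 0.459) and was called lower only with library sizes alone. Rgs7, Rgs20 and Rgs22 were each near 1 CPM at both passages, with edgeR adjusted p of 0.61, 0.737 and 0.946, and the sign of all 3 turned under some settings. The exons of Rgs20 overlap Atp6v1h on the other strand, which had 5303 counts against 81. Rgs1, Rgs13, Rgs18 and Rgs21, several of them genes of blood cells, had 0 counts in every library, under a floor of 0.152 to 0.298 CPM.

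The neighbours of the listed genes moved in both directions. Over all protein-coding genes within 100 kb of a listed gene, leaving out the listed genes themselves, 38 were found and 31 tested, of which 8 were higher and 17 lower, beside 37.0% and 37.3% of all genes. Near Rgs19 the opioid-related receptor gene Oprl1, whose start lies 21.0 kb upstream of that of Rgs19, fell from 4.27 ± 0.477 to 1.15 ± 0.434 CPM (log2 -1.85 ± 0.25, edgeR adjusted p = 4.93e-05). It was named after its values were seen.

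By distance over the 6 log2 CPM values, each gene centred on its own mean, the genes most like Rgs16 among 13085 protein-coding genes were Foxs1 (0.231), Krt19 (0.306) and Col5a3 (0.391). Foxs1, a forkhead factor, went from 0.836 ± 0.101 to 21.1 ± 1.47 CPM (SD, n = 3). Krt19, a keratin of simple epithelia, went from 5.37 ± 0.527 to 110.1 ± 9.68 CPM, and Col5a3, a fibrillar collagen chain, from 5.91 ± 0.641 to 115.6 ± 9.62 CPM. Among the genes most like Rgs2 were H1fx (0.128) and Sntb1 (0.147), whose log2 differences were -0.83 and -0.76. With 2 groups of 3, this likeness mostly reflects the size of the difference between the groups.

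Other proteins with an RGS-homology region, in part a scaffold rather than an accelerator of hydrolysis, moved in both directions. Of 9 such genes tested, 1 rose, 5 fell and 3 did not pass (median log2 -0.23, against 37.0% higher and 37.3% lower over all genes). Under library sizes alone 1 was higher and 8 lower, and with single libraries left out 4 to 6 were lower. Arhgef11, a guanine nucleotide exchange factor activated by Gα12 and Gα13, rose from 61.5 ± 0.987 to 116.3 ± 16.0 CPM (log2 0.92, edgeR adjusted p = 5.68e-06). Its relative Arhgef12 fell from 232.4 ± 6.20 to 182.6 ± 3.32 CPM (log2 -0.35, edgeR adjusted p = 5.01e-05). Snx25, a sorting nexin, fell from 51.5 ± 0.955 to 36.9 ± 3.86 CPM (log2 -0.48, edgeR adjusted p = 0.000239), with exons that overlap Cfap97 on the other strand.

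Receptor kinases and arrestins, which silence the receptor itself, split evenly: of 7 tested, 3 rose and 3 fell (median log2 0.22). The shares over all genes were 37.0% higher and 37.3% lower. Grk5 rose from 14.9 ± 0.406 to 31.2 ± 2.03 CPM (log2 1.07, edgeR adjusted p = 6.52e-07) and the arrestin Arrb1 from 67.6 ± 3.87 to 101.7 ± 7.37 CPM (log2 0.59, edgeR adjusted p = 1.7e-05). Grk6 fell from 61.4 ± 2.88 to 27.8 ± 0.911 CPM (log2 -1.14, edgeR adjusted p = 8.04e-08) and Grk3 from 41.7 ± 0.287 to 23.6 ± 1.42 CPM (log2 -0.82, edgeR adjusted p = 1.6e-06).

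Among the Gα genes, which include the Gi and Gq families that RGS proteins act on and also Gs and Gα12 relatives, 13 of 16 were tested. There 7 rose and 3 fell (median log2 0.35), beside 37.0% higher and 37.3% lower over all genes. That split turned to 2 higher and 6 lower under library sizes alone. Gna13, which acts through exchange factors such as Arhgef11, rose from 87.9 ± 2.01 to 206.6 ± 10.4 CPM (log2 1.23, edgeR adjusted p = 7.55e-09). Gnai2, a Gi subunit, rose from 415.5 ± 5.35 to 546.5 ± 7.63 CPM (log2 0.40, edgeR adjusted p = 1.1e-05), a call that library sizes alone did not keep (0.156). Gnaq, the main Gq subunit, fell from 113.9 ± 2.07 to 85.1 ± 3.66 CPM (log2 -0.42, edgeR adjusted p = 3.78e-05). Gnal, an activator of adenylyl cyclase, fell from 4.16 ± 0.624 to 1.59 ± 0.515 CPM (log2 -1.37, edgeR adjusted p = 0.000382), with exons that overlap Mppe1 on the other strand.

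Of 17 genes for Gβ and Gγ subunits 12 were tested, of which 10 were higher and 1 lower (median log2 0.54), or 7 and 2 under library sizes alone. Over all genes 37.0% were higher and 37.3% lower, and the difference between this list and other genes was not tested. The number that fell went to 2 without replicate 1 of passage 3 or replicate 3 of passage 20, and to 3 without replicate 1 of passage 20. Gng12 rose from 103.4 ± 8.06 to 158.0 ± 4.83 CPM (log2 0.61, edgeR adjusted p = 5.63e-06) and Gnb2 from 178.9 ± 3.68 to 250.8 ± 14.7 CPM (log2 0.49, edgeR adjusted p = 1.05e-05). Gng7 fell from 15.6 ± 1.14 to 9.26 ± 0.412 CPM (log2 -0.75, edgeR adjusted p = 7.12e-05).

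Of the genes for other G protein modulators, 10 of 13 were tested, 1 rose and 5 fell (median log2 -0.30), with 9 lower under library sizes alone. For comparison, 37.0% of all genes were higher and 37.3% lower. The one that rose was Rgs9bp, a membrane anchor of Rgs9 and Rgs11, from 4.27 ± 0.300 to 9.18 ± 0.318 CPM (log2 1.10, edgeR adjusted p = 1.54e-05). Rgs7bp, the related anchor of R7 proteins, fell from 3.48 ± 0.735 to 1.70 ± 0.0234 CPM (log2 -1.03, edgeR adjusted p = 0.00161). Rap1gap, which inactivates the small GTPase Rap1, fell from 12.3 ± 0.298 to 8.58 ± 0.459 CPM (log2 -0.52, edgeR adjusted p = 0.000964).

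Downstream of Gq, 6 of 13 tested genes rose and 4 fell (median log2 0.10), or 4 and 7 under library sizes alone. Among all genes 37.0% were higher and 37.3% lower. The calcium release channels Itpr2 and Itpr3 rose, from 17.9 ± 0.741 to 67.5 ± 7.01 CPM (log2 1.91, edgeR adjusted p = 9.64e-09) and from 15.3 ± 2.25 to 40.5 ± 4.35 CPM (log2 1.39, edgeR adjusted p = 1.12e-06). The phospholipase Plcb4 fell from 36.5 ± 0.758 to 18.5 ± 2.67 CPM (log2 -0.99, edgeR adjusted p = 4.87e-06). Prkcb, a protein kinase C, fell from 7.13 ± 0.133 to 4.86 ± 0.110 CPM (log2 -0.55, edgeR adjusted p = 0.00233).

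In the cyclic AMP branch, 9 of 28 tested genes rose and 12 fell (median log2 -0.09), or 4 and 17 under library sizes alone. Beside these stand 37.0% higher and 37.3% lower over all genes. Adcy5, an adenylyl cyclase that Gi inhibits, fell from 31.2 ± 0.200 to 4.84 ± 0.224 CPM (6.44-fold, log2 -2.69, edgeR adjusted p = 1.64e-09). The phosphodiesterase Pde7b fell from 22.7 ± 1.30 to 3.82 ± 0.684 CPM (log2 -2.56, edgeR adjusted p = 2.1e-08). Prkar2b, a regulatory subunit of protein kinase A, rose from 18.5 ± 1.07 to 42.2 ± 3.32 CPM (log2 1.19, edgeR adjusted p = 2.82e-07), and Pde4a from 14.9 ± 0.533 to 27.5 ± 0.983 CPM (log2 0.89, edgeR adjusted p = 2.28e-06).

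Of 60 receptor genes listed, 44 were tested, 15 rose and 20 fell (median log2 -0.10), or 10 and 24 under library sizes alone. Over all genes 37.0% were higher and 37.3% lower. The prostaglandin F receptor Ptgfr fell from 12.2 ± 1.03 to 0.720 ± 0.306 CPM (16.3-fold, log2 -4.03, edgeR adjusted p = 3.23e-08) and the lysophosphatidic acid receptor Lpar4 from 52.1 ± 2.72 to 10.2 ± 1.84 CPM (5.05-fold, edgeR adjusted p = 1.15e-08). The serotonin receptor Htr2a rose from 4.36 ± 0.314 to 12.7 ± 0.590 CPM (log2 1.53, edgeR adjusted p = 6.39e-07) and the nucleotide receptor P2ry2 from 1.82 ± 0.211 to 8.21 ± 1.51 CPM (log2 2.17, edgeR adjusted p = 1.36e-06). Ptgfr, Htr2a and P2ry2 all couple to Gq.

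**Figure D3:**
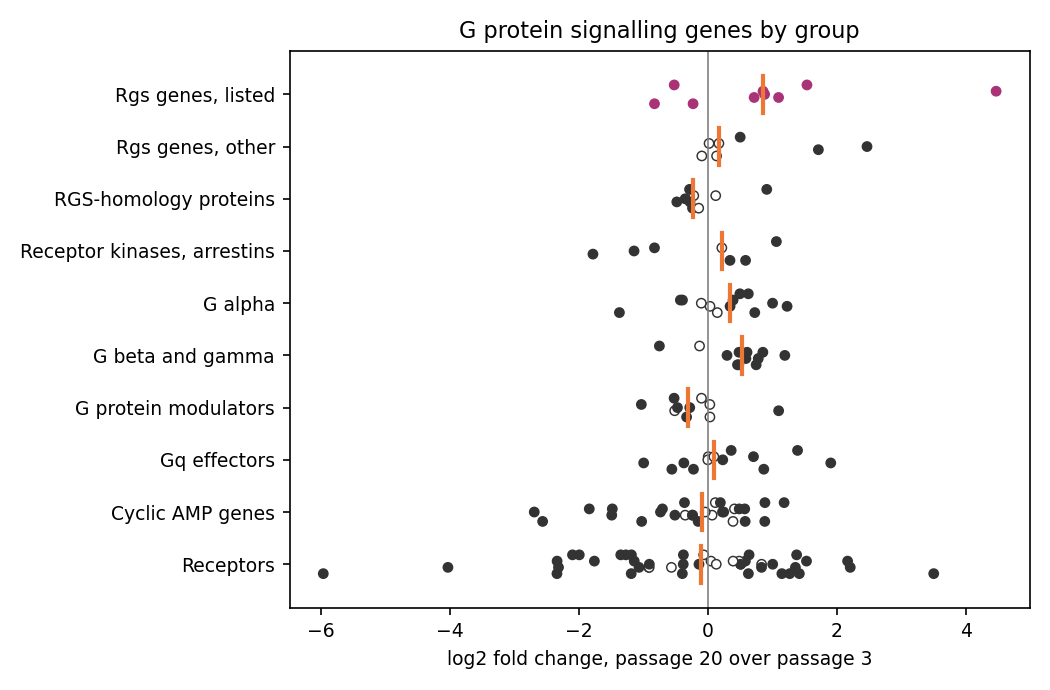
log2 fold change (passage 20 over passage 3) of each tested gene, by group, with each point 1 gene, filled where the edgeR adjusted p was under 0.05 and open otherwise, and the vertical bar at the group's median. The 9 listed Rgs genes are in purple and carry no test, with Rgs16 at 4.47 the farthest right in the plot, and the medians of the other groups lie between -0.30 and 0.54.

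Because Rgs5 marks pericytes, the markers of cell types were set beside it. Of 10 pericyte markers, 7 rose, 1 fell and 2 (Higd1b and Vtn) had too few counts to be tested. Over all genes 37.0% were higher and 37.3% lower, and with library sizes alone 5 markers were higher and 1 lower. The summed level of the 10 markers went from between 712.1 and 809.1 CPM at passage 3 to between 1241 and 1301 CPM at passage 20. Of the 10 markers, Ndufa4l2 gave the largest part of that difference in CPM. Kcnj8 and Abcc9, which form a potassium channel of pericytes and smooth muscle, rose from 0.301 ± 0.0893 to 5.31 ± 1.18 CPM (log2 4.07, edgeR adjusted p = 3.37e-07) and from 1.34 ± 0.421 to 9.46 ± 0.325 CPM (log2 2.80, edgeR adjusted p = 2.47e-07). Kcnj8 had only 16 counts over the passage 3 libraries, against 172 at passage 20, so its early level lay close to the floor of 3 counts per library. Cspg4, the NG2 proteoglycan, rose from 67.5 ± 9.36 to 150.2 ± 6.12 CPM (edgeR adjusted p = 1.2e-06) and Ndufa4l2 from 60.0 ± 17.5 to 309.8 ± 15.8 CPM (edgeR adjusted p = 8.08e-05), though exons of Ndufa4l2 overlap those of Shmt2 on the other strand. Mcam, Anpep and Notch3 also rose, by 0.89, 0.53 and 0.45 on the log2 scale, the last of these from 268.6 ± 11.5 CPM at passage 3, and Anpep and Notch3 were not called with library sizes alone. Pdgfrb, the receptor that pericytes depend on, fell from 171.8 ± 8.13 to 107.4 ± 11.7 CPM (log2 -0.68, edgeR adjusted p = 1.07e-05). The part of these markers in the Rgs5 difference was not tested.

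**Figure D4:**
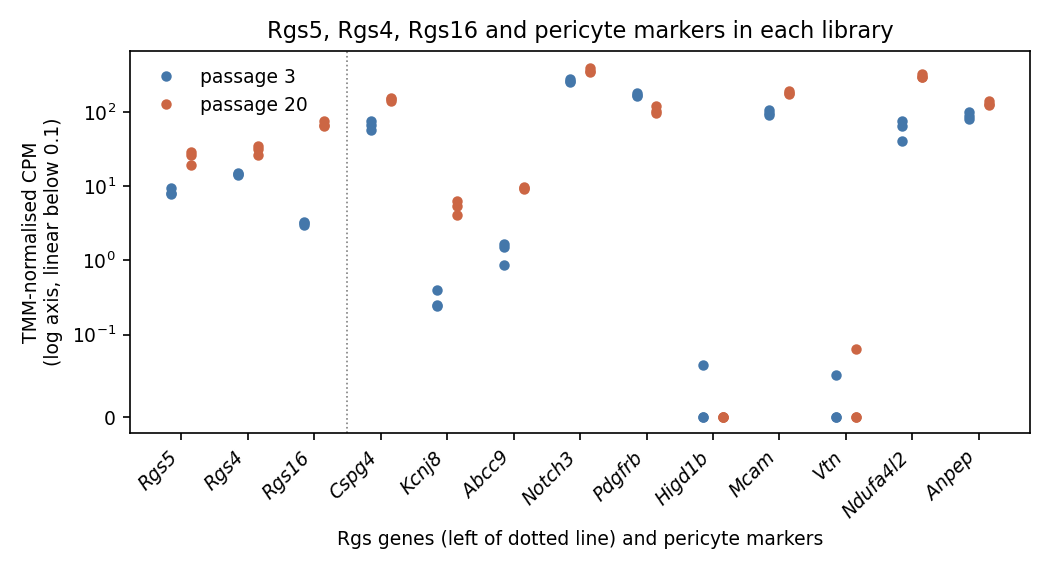
Level of Rgs5, Rgs4, Rgs16 and 10 pericyte markers in each library, in TMM-normalised CPM on an axis that is logarithmic above 0.1, with each point 1 library. Rgs5 and 7 of the markers are higher in all passage 20 libraries, Pdgfrb is lower, and Higd1b and Vtn lie at or near 0.

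Markers of other cell types moved in both directions except in the immune list, so that a list's sum can hide opposite changes of its members. Their calls stand beside 37.0% higher and 37.3% lower over all genes. Summed levels of 7 smooth muscle markers overlapped between the groups (883.2 to 946.9 and 886.1 to 917.2 CPM), although 1 marker rose and 4 fell. Acta2 alone, which did not pass, made up most of that sum. Sums of 7 neuronal markers overlapped as well (110.0 to 115.7 and 107.5 to 124.1 CPM), while 2 of them rose and 3 fell. The 8 immune markers had sums of 12.8 to 13.9 CPM in the early and 23.5 to 26.5 CPM in the late libraries. Of them 3 rose and 0 fell, and the defining genes Ptprc and Cd3e were at 0. The 7 endothelial markers summed to 16.9 to 19.7 and 10.9 to 11.4 CPM, with 1 higher, 2 lower and Emcn at 0. The 7 cardiomyocyte markers summed to 12.5 to 13.8 and 10.03 to 11.98 CPM, with 2 higher, 2 lower and Myl2 at 0. The 6 fibroblast and matrix markers had a larger sum at passage 20, 22310 to 26750 CPM against 9680 to 10070 CPM, with 5 that rose and 1 that fell. All 8 cardiac progenitor markers were detected, 4 higher and 4 lower, summing to 762.6 to 786.5 and 642.0 to 710.2 CPM. Among them Isl1 fell from 63.2 ± 5.73 to 7.45 ± 0.534 CPM (edgeR adjusted p = 9.74e-10) and Nkx2-5 rose from 1.15 ± 0.211 to 5.24 ± 0.371 CPM (edgeR adjusted p = 1.88e-06). Their part in the Rgs differences was not tested.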

How the data were processed

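The authors deposited whole-number read counts per gene for each library, and values on a log2 scale whose transformation is not stated. Tools listed in the submitters' processing notes are HISAT2 (2.0.5), HTSeq, SAMtools and DESeq2, and the build is GRCm38. Strand setting and annotation release: not given in the sources used here. Gene names, positions and exon lengths came from GENCODE M21, which matched 53706 of 53801 identifiers; promoter windows came from RefSeq (GRCm38.p6).

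Counts were filtered with filterByExpr (15143 genes left), scaled with TMM factors (0.873 to 0.917 for passage 20, 1.12 to 1.13 for passage 3), and compared between passages by robust quasi-likelihood tests (edgeR 4.0.16, R 4.3.3). P-values were adjusted by Benjamini-Hochberg over all genes tested, with a threshold of 0.05. Alternatives were library sizes only, RLE factors, limma-voom (limma 3.58.1), DESeq2 1.42.0, a minimum of 1 CPM in 3 libraries, no filter, a replicate block and each library left out. Differences of the deposited log2 values were added after seeing the data.

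The listed genes and all gene lists were chosen with earlier results of these data known. Some genes that the rules below name are not reported here. Named from each list were up to 2 genes per direction with the smallest adjusted p and at least 1 CPM in the higher group; markers, neighbours and the last group of the closing section were named beyond that rule. Same-numbered libraries did not deviate together, and no replicates agreed within sampling noise. Intervals and floors cover counting error only.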

Additional observations from a re-analysis of the deposited data

How the results depend on the processing

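None of the 9 tested listed genes turned direction under the 13 alternatives or in the authors' deposited log2 values, where Rgs2 was -0.60 and Rgs16 3.94. Scaling by library size alone gave 3528 higher genes in all, 1 other Rgs gene lower (Rgs6), and 8 RGS-homology genes, 6 Gα genes, 2 Gβ and Gγ genes, 9 modulators and 7 Gq effectors lower, with 2 Gα genes and 4 cyclic AMP genes higher. No low-count filter gave 2 Gβ and Gγ genes lower. The median log2 difference over all genes was -0.34 with library sizes alone, and the cause of these changed counts was not tested.

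With each library left out in turn, calls ranged from 5289 to 6103 higher and from 5244 to 6266 lower over all genes, from 1 to 2 higher among RGS-homology genes (2 without replicate 3 of passage 20) and from 1 to 3 lower among Gβ and Gγ genes. Signs turned for genes that had not passed. On the log2 scale Rgs7 was -0.151 with library sizes alone and ranged from -0.0271 (without replicate 3 of passage 3) to 0.337 with libraries left out. Rgs20 was -0.187 and ranged from -0.158 (without replicate 2 of passage 3) to 0.391. Rgs22 was -0.303, and -0.00988 with no filter, and ranged from -0.186 (without replicate 3 of passage 20) to 0.134. Metap2 was -0.323, and -0.0236 with no filter, and ranged from -0.0113 (without replicate 3 of passage 20) to 0.0101. The cause was not tested. With library sizes alone, Gnai2, Rgs9, Notch3, Anpep and Ubr4 lost their calls, and Rgs6 and Metap2 were called lower.

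The replicate numbers did not pair the libraries (correlations of same-numbered deviations from -0.03 to 0.05). With the replicate block, 5521 genes were higher and 5582 lower, and of the named genes only Metap1 and Ate1 lost their call. Depth limits Rgs14, Rgs7, Rgs8, Rgs20 and Rgs22, each under 80 counts per group, and cultures behind the replicates are not stated.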

Other observations

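The genes of the N-degron route that acts on proteins starting with methionine and cysteine were looked up after the Rgs values had been seen. Of 7 such genes tested, 2 rose and 4 fell, against 37.0% and 37.3% over all genes (median log2 -0.16). Ado, the thiol dioxygenase that oxidises the exposed cysteine, fell from 53.8 ± 1.48 to 35.2 ± 6.83 CPM (SD, n = 3, log2 -0.60 ± 0.11, edgeR adjusted p = 0.000734). The ubiquitin ligase genes of the route did not move together. Ubr1 fell from 65.4 ± 1.56 to 39.1 ± 3.56 CPM (log2 -0.74 ± 0.07, edgeR adjusted p = 4.43e-06), whereas Ubr2 rose from 156.9 ± 2.47 to 318.1 ± 36.7 CPM (log2 1.02 ± 0.08, edgeR adjusted p = 6.61e-07). Ubr4 rose from 412.1 ± 3.22 to 543.9 ± 18.8 CPM (log2 0.40 ± 0.05, edgeR adjusted p = 1.55e-05), a call that library sizes alone did not keep. Ate1, the arginyltransferase that follows oxidation, was 46.1 ± 1.94 and 41.3 ± 0.693 CPM (log2 -0.16 ± 0.07, edgeR adjusted p = 0.0485). Metap1, a methionine aminopeptidase, was 60.2 ± 1.13 and 53.9 ± 1.86 CPM (log2 -0.16 ± 0.06, edgeR adjusted p = 0.0346), and both of these calls were lost with DESeq2 and without any 1 of several libraries. Metap2, the other methionine aminopeptidase, was 180.5 ± 1.33 and 181.5 ± 0.707 CPM (log2 0.01 ± 0.05, edgeR adjusted p = 0.887). Whether any of this alters the level of Rgs4, Rgs5 or Rgs16 protein cannot be read from RNA counts.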
